A study of Drosophila melanogaster with 24 samples.

Results

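The cytosolic ribosomal protein genes were taken as the genes whose FlyBase symbol begins with RpL or RpS, which leaves out the mitochondrial mRp genes, and which reached a normalised value of 10 in 3 or more libraries. Of 12024 genes in the table, 86 carried such a symbol and 85 passed, 50 of the large subunit (RpL) and 35 of the small subunit (RpS). The gene that did not pass was RpS28a, which reached 10 in 1 library only, with 13.3 in F1-18 replicate C. The member nearest the limit on the inside was RpL37-2, at 10 or more in 18 libraries. The symbols RpL7-like, RpL19, RpL27A, RpL31, RpS10b and RpS12 were not analysed here, since they had no row under the identifiers of the annotation used.

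RNA was sequenced from whole males of 1 isogenic fly line, w1118 iso/Dp(1;Y)y+ iso;2 iso;3 iso, with 20 males of 0 to 16 h pooled in each library. Cold-treated F1 flies (F1-18, 4 libraries) spent their life at 18 °C and control F1 flies (F1-25, 3 libraries) at 25 °C, so that the temperature of development and of sampling cannot be told apart. All F2 flies were reared at 25 °C from washed eggs on food that carried the faeces of F1 males, and their names give the F1 temperature of the microbiome donors (M) and of the germline donors (G). They are F2-M18-G18 (4 libraries), F2-M25-G18 (3 libraries), F2-M18-G25 (4 libraries) and F2-M25-G25 (4 libraries). Since F1 flies laid their eggs at their own temperature, the G18 groups had also met 18 °C as eggs, so that this and the germline itself cannot be told apart. For both crossed F2 groups the sample names and the sample titles disagree on which source comes first. The sample names were followed, with the microbiome first, and the read summary of the study lists the crossed groups with the same replicate letters as these names. The supplement of the study also puts the microbiome first where it explains its names of the crossed groups. Results that involve a crossed group would carry the other group's name if the titles were right.

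In 80 of the 85 members, the C and D libraries of F2-M25-G25 were each a whole number away from the mean of its A and B libraries. These values were treated as missing, so that F2-M25-G25 had 2 values for those genes, and 4 for RpL37-2, RpLP0-like, RpS10a, RpS28-like and RpS5b. Normalised values summed to between 3702933 and 4398050 per library over all genes. The values are read counts per gene after a TMM normalisation between libraries, so these sums follow the normalisation and do not give the depth. The aligned reads per library that the study lists were not used here. Of the markers with a row, 14 of 16 testis germline genes and 12 of 12 accessory gland genes had a mean of 10 or more, against 1 of 4 genes of ovary and eggshell. No marker with a row was at 0 in every library.

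A cytosolic ribosome joins a small subunit, which reads the messenger RNA, to a large subunit, which forms the peptide bond. Each subunit is built in the nucleolus from ribosomal RNA and 1 copy of most ribosomal proteins, so cells make these proteins in close proportion, and their genes rank among the most strongly transcribed in growing tissue. In Drosophila the loss of 1 copy of many of them gives the Minute phenotype of slow growth and short bristles. Several fly ribosomal proteins are encoded by 2 genes, and some of the second genes, such as RpL22-like, are known from the germline.

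Ribosomal protein transcripts were abundant and covered a wide range of levels. Levels of different genes are compared here per kb of exon, as the mean normalised value over 20 libraries, the C and D libraries of F2-M25-G25 left out, divided by the length of the union of the exons. The median member had 1454 per kb, against 49.59 per kb for the median of 11180 genes tested with an exon length. Of the 500 genes with the highest mean per kb, 71 were members. Together the 85 genes held 2.14% of the summed values in the lowest library and 3.13% in the highest. The median was 1405 per kb in the large subunit and 1490 per kb in the small subunit. The highest member was RpL41, which encodes the shortest ribosomal protein, with 5969 per kb, followed by RpS27A with 3161 per kb. The 3 lowest were RpL37-2 with 31.8 per kb, RpLP0-like with 33.7 per kb and RpS5b with 39.1 per kb. The exons of RpL41 cover 320 bases, so its value per kb rests on a short gene.

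**Figure D1:**
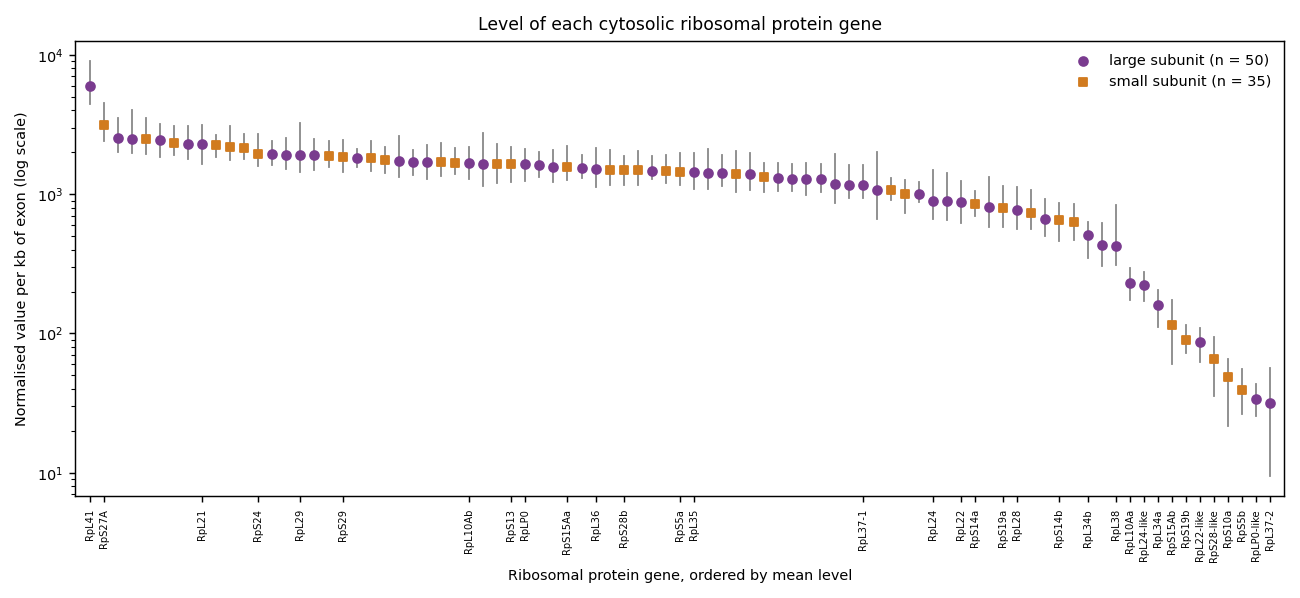
Mean normalised value per kb of exon (vertical axis, log scale) of the 85 members, ordered by level, for the large subunit (circles) and the small subunit (squares), with a grey line from the lowest to the highest of 20 libraries and names for genes of pairs, called members and RpL41. The level falls slowly from RpL41 at 5969 to RpL38 at 421.6, and 11 genes follow, from RpL10Aa at 231.8 to RpL37-2 at 31.8.

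The 11 genes at the low end were all second copies, that is the lower gene of a pair with 1 protein name, or RpS10a, whose partner RpS10b was not analysed. They are RpL10Aa, RpL22-like, RpL24-like, RpL34a, RpL37-2, RpLP0-like, RpS10a, RpS5b, RpS15Ab, RpS19b and RpS28-like, and their levels ran from 31.8 to 231.8 per kb, against 421.6 per kb or more for each of the other 74 members. RpS14b, the lower gene of its pair at 650.8 per kb, lies above this range and is counted here among the 74. The separation in level between second copies and the other members thus depends on that choice. RpL24-like and RpLP0-like are related to factors that act in the assembly of the large subunit in yeast, Rlp24 and Mrt4, rather than to proteins of the finished ribosome. Within the 11 pairs of genes the first gene exceeded the second by 1.31-fold per kb in RpS14a and RpS14b, by 4.07-fold in RpL24 and RpL24-like, and by 48.6-fold in RpLP0 and RpLP0-like. RpS14a (chromosome X, 7933742 to 7934677, Release 6) and RpS14b (7934898 to 7935792) lie side by side on the same strand and encode the same protein. Only uniquely aligned reads were counted, so reads of near-identical genes could have been lost or split, and the levels of such pairs are uncertain. RpL12 and RpL39 overlap on opposite strands of chromosome 2R, at the end of RpL12 (24060378 to 24061860) and of RpL39 (24061853 to 24062431), and the counting took strand into account.

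**Figure D2:**
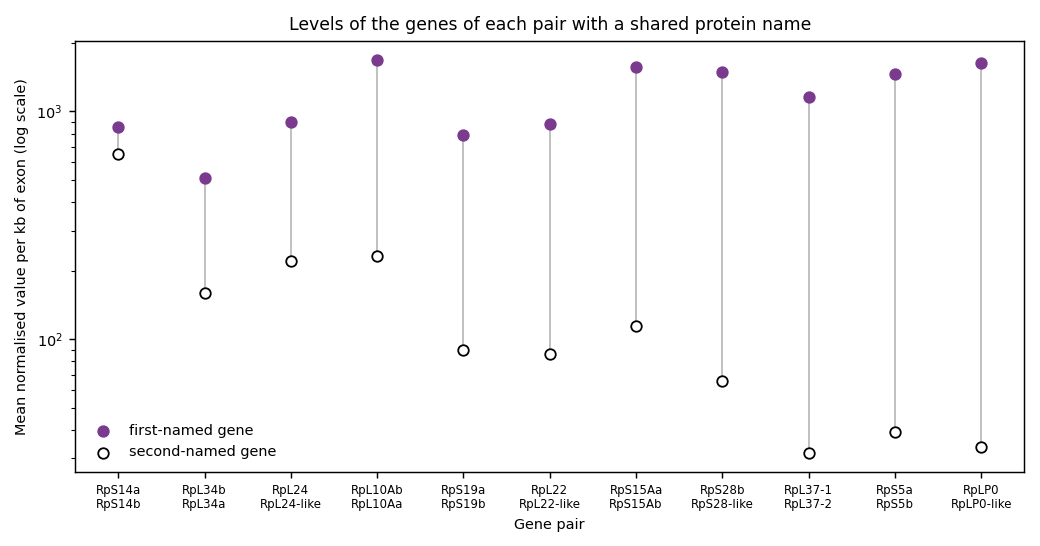
Mean normalised value per kb of exon (vertical axis, log scale) of the first gene (filled) and the second gene (open) of each of 11 pairs, ordered by the ratio between them. The pairs run from RpS14a and RpS14b, with a ratio of 1.31, to RpLP0 and RpLP0-like, with a ratio of 48.6.

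Members varied together from library to library. With each library expressed as its deviation, in log2(value + 2), from the mean of its own group, the median correlation over 20 libraries was 0.856 between any pair of the 74 members other than second copies (2701 pairs). Over all 85 members it was 0.81, and over all genes tested 0.001. These correlations describe libraries that share a normalisation, and the points are not independent replicates of a condition. Members that vary together are not independent either. Counts of members above or below 0 in the comparisons below are thus not counts of separate results. RpL6 followed the median of the other members most closely, with a correlation of 0.979. Among the 74 members the lowest correlation was 0.505, in RpL28, and among the second copies it ran from -0.312 in RpL22-like to 0.744 in RpL24-like.

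Among the groups, the shared movement was widest within F1-18. On the log2 scale, the median deviation of the 85 members from their own means was 0.35, 0.01, 0.15 and -0.21 in the 4 cold-treated F1 libraries and -0.15, -0.09 and 0.24 in the 3 control F1 libraries. It was 0.23, 0.21, -0.06 and -0.11 in F2-M18-G18, and in the libraries of F2-M25-G18 it was 0.01, 0.06 and 0.21. The F2-M18-G25 libraries were at -0.09, -0.08, -0.29 and -0.05, and in F2-M25-G25 -0.13 and -0.17. The range within F1-18 was thus 0.56, a 1.47-fold difference between libraries of 1 group. It was 0.39 in F1-25, 0.34 in F2-M18-G18 and 0.04 to 0.24 in the other groups. The highest and the lowest group mean differed by 0.243. Means of several libraries vary less than single libraries, so that value cannot be set against the ranges within groups. In F1-18 replicate A 73 of the 74 members other than second copies lay above their own mean, and in F1-18 replicate D 73 of 74 lay below it. In F2-M18-G25 replicate C all 74 lay below. This library had the fewest aligned reads in the summary of the study, and the part of depth in its values was not tested.

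**Figure D3:**
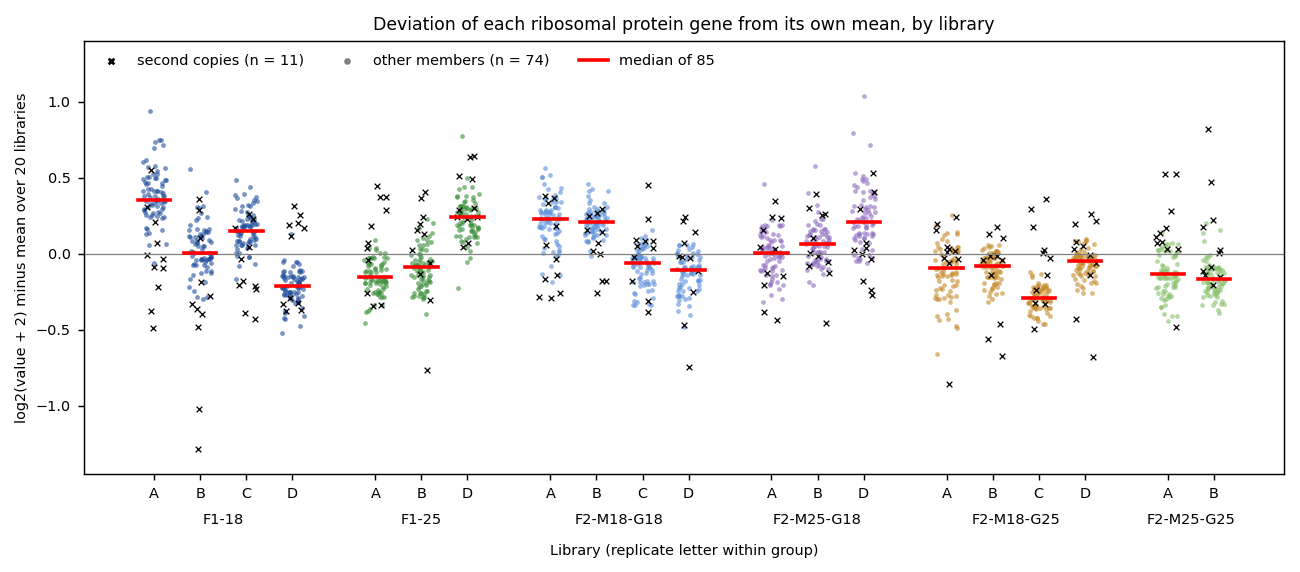
Deviation of log2(value + 2) of each member from its mean over 20 libraries (vertical axis), by library within group, with second copies as crosses and the median of the 85 members as a red bar. The red bars run from -0.29 in F2-M18-G25 replicate C to 0.35 in F1-18 replicate A, and libraries of the same group differ by up to 0.56.

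Some other genes of translation were followed in the same libraries, and they matched the members to differing degrees. The median deviation of 5 translation elongation factors ran from -0.25 to 0.27 and that of 70 mitochondrial ribosomal proteins from -0.23 to 0.40. That of 43 translation initiation factors ran from -0.09 to 0.14, with the library highest for the members also highest for them in 6 of 6 groups and the lowest also lowest in 3 of 6. For the mitochondrial ribosomal proteins both counts were 3 of 6, and for 20 ribosome biogenesis factors they were 4 of 6 and 3 of 6. In 4 of 6 groups the library highest for the members was also highest for the elongation factors, and in 5 of 6 groups the lowest was the same. These counts depend on ties at 2 decimals, which went to the first library. Both F2-M25-G25 libraries were at -0.19 for the elongation factors, and replicates B and D of F2-M18-G25 were both at -0.03. For the summed level of 8 muscle markers these counts were 3 of 6 and 4 of 6, and for testis, accessory gland and midgut markers each was 0 or 1 of 6. With 2 to 4 libraries in a group such matches also arise by chance. How many chance would give was not worked out, so counts such as 3 of 6 do not show a shared movement. The muscle sum itself was 420700 in F1-18 replicate A and 336800 in replicate D. The part of muscle content or RNA quality in the shared movement was not tested. In whole flies, fewer cells of a type and less RNA per cell cannot be told apart.

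Between cold-treated and control F1 flies few ribosomal protein genes passed the test. RpS13 and RpS24, both of the small subunit, were higher and the second copies RpL10Aa and RpS10a were lower in the cold-treated flies, and the other 81 members did not pass the test. The 4 members called, by a limma adjusted p under 0.05 over all 11314 genes, are 4.71% of 85, against 23.5% of all genes tested. Of all genes 11% were higher and 12.6% lower in F1-18. At an unadjusted p under 0.05 there were 7 members, against 35.4% of all genes. The median log2 fold change of the members was 0.09, and 62 of 85 were above 0, against 51.6% of all genes. With values scaled to equal library totals the median of all genes shifted to -0.14, that of the members became -0.06, and 22 of 85 were above 0, so the sign of the median depends on the scaling. Under that scaling 0 members were higher and 6 were lower, RpL5, RpL23A, RpL10Aa, RpS10a, RpS28-like and RpS5b. Relative to the median of all genes the members were at 0.08 in both. The median standard error of a member was 0.14. The median within-group SD of a member was 0.193, against 0.207 over all genes tested and 0.145 over the 2594 genes with a mean of 300 or more. The part of this spread in the low number called was not tested. The number called was 8 without replicate D of F1-18, 7 without D of F1-25, 2 without B of F1-18 or A of F1-25, and 1 without B of F1-25.

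The values of RpS13 (chromosome 2L, 8363477 to 8364662), a protein of the small subunit, were 1902, 1581, 1535 and 1593 in F1-18, against 1196, 1188 and 1403 in F1-25. All cold-treated libraries lay above all control libraries. The log2 fold change was 0.39 (standard error, written SE, of 0.11, limma, adjusted p = 0.0158). RpS24 (chromosome 2R, 22640526 to 22641419), also of the small subunit, had 1737, 1399, 1379 and 1204 in F1-18 and 1030, 1101 and 1267 in F1-25, and its groups overlapped. Its log2 fold change was 0.33 (SE 0.11, limma, adjusted p = 0.0403). Both calls were lost when replicate A or replicate B of F1-25 was left out, with values scaled to equal library totals, and in a fit of the F1 libraries alone. That of RpS24 was also lost without replicate A, B or C of F1-18. The within-group SD on the log2 scale was 0.148 in RpS13 and 0.152 in RpS24. The median of all members differed by 0.56 between libraries A and D of F1-18, but that is a gap between single libraries and not between group means.

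RpL10Aa (chromosome 3R, 15037366 to 15038149) is the second gene for a protein of the mobile stalk beside the exit site of the ribosome. Its values were 168, 136.5, 185 and 143 in F1-18, against 204.5, 233 and 222 in F1-25, without overlap. The log2 fold change was -0.48 (SE 0.12, limma, adjusted p = 0.00678), and it passed in every setting tried, with adjusted p between 0.00131 and 0.0497. RpS10a (chromosome 3R, 27652760 to 27653363), a small subunit gene, had the low values 21.6, 13.1, 20.8 and 31.1 in F1-18 and 37.7, 38.6 and 33.9 in F1-25, again without overlap. The log2 fold change was -0.76 (SE 0.23, limma, adjusted p = 0.0178), which understates the change of so low a gene. It did not pass without replicate B of F1-18 (-0.57, adjusted p = 0.0655) or without replicate B of F1-25 (-0.73, adjusted p = 0.071), nor in a fit of the F1 libraries alone (-0.76, adjusted p = 0.0784).

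The first gene of the RpL10A pair, RpL10Ab, had 2110, 1669, 1981 and 1430 in F1-18 and 1597, 1791 and 2057 in F1-25, a log2 fold change of -0.02 (limma, adjusted p = 0.926). Thus its groups overlapped, while those of RpL10Aa did not. In all, 2 members (RpS13 and RpL28) had every F1-18 library above every F1-25 library and 2 (RpL10Aa and RpS10a) had every one below, against 11.1% and 15.1% of all genes. Of the 11 second copies 9 had a log2 fold change below 0 in F1, with a median of -0.17, against a median of 0.11 in the other 74 members, of which 60 were above 0. RpS28-like was at -0.53 (limma, adjusted p = 0.104) and RpS5b at -0.41 (adjusted p = 0.168). The summed level of 16 testis germline markers was also lower in cold-treated flies, 4226 to 4707 in F1-18 against 5459 to 5714 in F1-25. The accessory gland sum was 5786 to 8802 in F1-18 against 13380 to 15300 in F1-25, and the muscle sum was 336800 to 420700 in F1-18 against 234400 to 294600 in F1-25. The midgut sum was 1389 to 4601 in F1-18 against 5192 to 11650 in F1-25, so that none of these 4 sums overlapped between the groups. The part of tissue composition in these results was not tested.

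**Figure D4:**
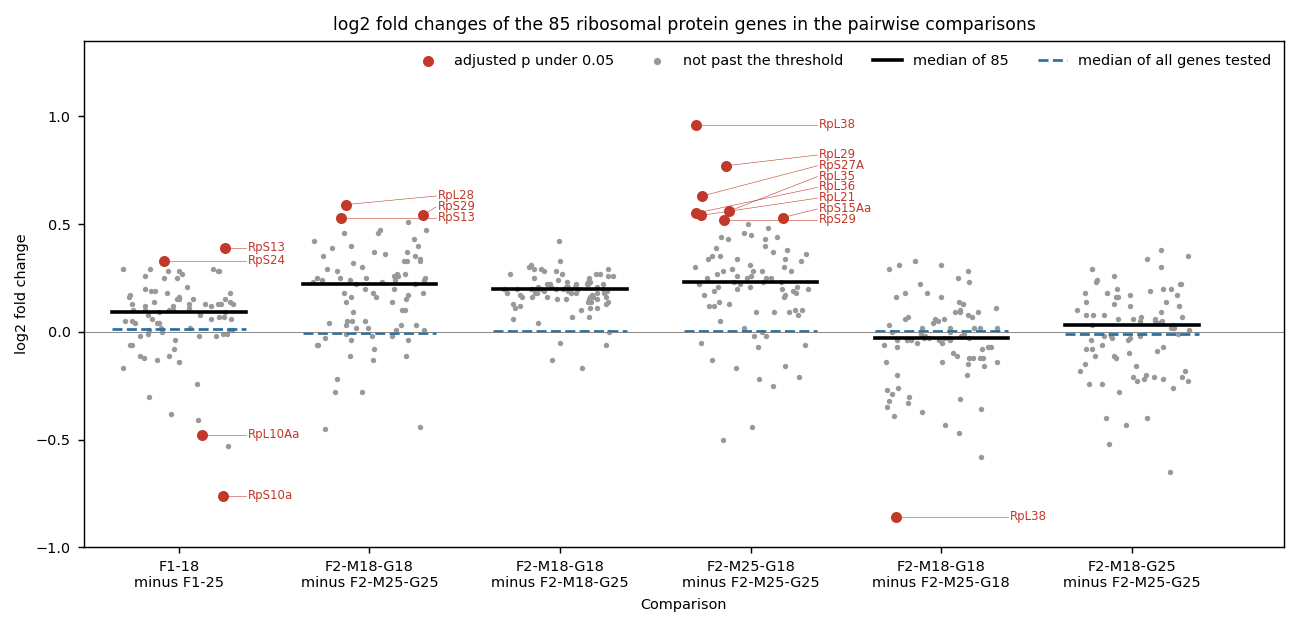
log2 fold changes of the 85 members (vertical axis) in the 6 pairwise comparisons, with members past an adjusted p of 0.05 in red and named, the median of the members as a black bar and the median of all genes as a dashed line. The medians of the members are 0.09, 0.22, 0.20, 0.23, -0.03 and 0.03 from left to right, and the medians of all genes lie within 0.013 of 0.

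In F2 flies with both sources from cold-treated flies, against F2 flies with both from control flies, the members leaned upwards and 3 were called. RpL28, RpS13 and RpS29 were higher in F2-M18-G18, and none was lower. This is 3.53% of the members, against 2.91% of all genes tested, of which 2.23% were higher. At an unadjusted p under 0.05 there were 22 members, against 17.4% of all genes. The median log2 fold change was 0.22, with 68 of 85 above 0, against 49% of all genes. With values scaled to equal library totals the median was 0.10 and that of all genes -0.11, and relative to all genes it was 0.22 under both scalings. In 38 members every F2-M18-G18 library lay above every usable F2-M25-G25 library, which held for 13.5% of all genes. These shares are not on the same footing. Of the members 80 of 85 had 2 values in F2-M25-G25, against 7150 of 11314 genes, and the rest had 4, which is harder to pass. Since only 2 values were left in F2-M25-G25, the calls rest on them, and none remained when replicate A or replicate B of F2-M25-G25 was left out. Without replicate A of F2-M18-G18, 1 remained. The larval fat body sum was 95800 to 114300 in F2-M18-G18 against 12700 to 12740 in F2-M25-G25, and the testis sum was 3949 to 4337 in F2-M18-G18 against 5001 to 5464 in F2-M25-G25. Their part in the result was not tested.

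RpL28 (chromosome 3L, 3220911 to 3222960), a protein of the large subunit, had 1558, 1213, 1171 and 1094 in F2-M18-G18, against 776 and 883 in F2-M25-G25. The groups did not overlap, and the log2 fold change was 0.59 (SE 0.12, limma, adjusted p = 0.00876). RpS13 had 1962, 1592, 1568 and 1420 in F2-M18-G18, against 1097 and 1157 in F2-M25-G25, which is a log2 fold change of 0.53 (SE 0.13, limma, adjusted p = 0.0242). RpS29 (chromosome 3R, 9778042 to 9779528), a zinc-binding protein of the small subunit, had 2331, 2394, 1959 and 1917 in F2-M18-G18, against 1458 and 1488 in F2-M25-G25. Its log2 fold change was 0.54 (SE 0.14, limma, adjusted p = 0.0358). That call was lost with values scaled to equal library totals (0.42, adjusted p = 0.0502), without a trend in the prior (adjusted p = 0.0671) and without replicate A or replicate B of F2-M18-G18. In RpS29 and in RpS13, too, all libraries of F2-M18-G18 lay above those of F2-M25-G25.

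RpS13 was the one member called in both generations, with log2 fold changes of 0.39 in F1 and 0.53 in F2. RpL28 was at 0.29 in F1, with 1187, 1134, 1084 and 1012 in F1-18 against 920, 889.8 and 899 in F1-25, and narrowly missed the threshold (SE 0.11, limma, adjusted p = 0.0537). These F1 groups did not overlap either. RpS29 had a log2 fold change of 0.00 in F1 (adjusted p = 0.989). The difference between its F1 and F2 effects was -0.54 (SE 0.18, limma, adjusted p = 0.0938), and with values scaled to equal library totals it passed (-0.58, adjusted p = 0.0421).

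With the values as deposited, RpS10a was the one member whose effect differed between generations by the test of that difference, with F1 minus F2 at -1.18 (SE 0.31, limma, adjusted p = 0.0304), against 4.78% of all genes called and 3.16% called in that direction. At an unadjusted p under 0.05 there were 3 members, against 22.1% of all genes. In F2 its values were 27.8, 34.2, 39.9 and 33.5 in F2-M18-G18 and 29.2, 24.5, 21.4 and 23.8 in F2-M25-G25, for which all 4 values could be used. This F2 difference of 0.42 did not pass on its own (SE 0.21, limma, adjusted p = 0.31). The difference between generations was no longer called without replicate B of F1-18, B of F1-25, C or D of F2-M18-G18 or B of F2-M25-G25, with adjusted p up to 0.0746, nor with the C and D libraries of F2-M25-G25 left out for all genes (-1.07, adjusted p = 0.0734).

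The source of the germline was compared within each microbiome. With the M25 microbiome 8 members were higher in F2-M25-G18 than in F2-M25-G25 and none was lower. They were RpL38, RpL29, RpL35, RpL36 and RpL21 of the large subunit and RpS27A, RpS15Aa and RpS29 of the small subunit. This is 9.41% of the members, against 7.06% of all genes tested, of which 4.35% were higher. The median log2 fold change was 0.23, and 72 of 85 members were above 0, against 50.3% of all genes. With values scaled to equal library totals the median was 0.05 and that of all genes -0.17, and 3 members, RpL38, RpL29 and RpS27A, were higher and 2, RpL4 and RpS5b, were lower. In 52 members every F2-M25-G18 library lay above every usable value of F2-M25-G25, which held for 19.3% of all genes. In 3 members every one lay below, which held for 18.9%. A larger share of the members than of all genes had only 2 values in F2-M25-G25, so these shares are not on the same footing. At an unadjusted p under 0.05 there were 24 members, against 24.3% of all genes. Again no call remained without replicate A or without replicate B of F2-M25-G25, while 4 remained without replicate A and 1 without replicate D of F2-M25-G18.

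RpL38 (chromosome 2R, 4515388 to 4516458) is a small protein of the large subunit, known in the mouse for a role in the translation of Hox transcripts. It had 568, 615 and 849 in F2-M25-G18, against 373 and 314 in F2-M25-G25. The log2 fold change of 0.96 was the largest of any member in the pairwise comparisons (SE 0.19, limma, adjusted p = 0.00797). RpL29 (chromosome 2R, 21293768 to 21294404), also of the large subunit, had 828, 960.4 and 1262 in F2-M25-G18, against 592 and 577 in F2-M25-G25, which is a log2 fold change of 0.77 (SE 0.18, limma, adjusted p = 0.015). In both genes replicate D of F2-M25-G18 was the highest of all libraries.

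RpS27A (chromosome 2L, 10408352 to 10410456) encodes ubiquitin fused to a small subunit protein. Its values were 2099, 2108 and 2673 in F2-M25-G18, against 1523 and 1428 in F2-M25-G25, with a log2 fold change of 0.63 (SE 0.16, limma, adjusted p = 0.0215). The other 5 members called had log2 fold changes of 0.52 to 0.56 and adjusted p between 0.0338 and 0.0408, and none of their groups overlapped. RpS15Aa, for instance, averaged 1791 ± 251 in F2-M25-G18 (SD, n = 3) and 1232 ± 43.4 in F2-M25-G25 (SD, n = 2). RpL40, which encodes ubiquitin fused to a large subunit protein, was at 0.09 (adjusted p = 0.687).

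With the M18 microbiome nearly all members leaned the same way, but none was called. In F2-M18-G18 relative to F2-M18-G25 the log2 fold change was above 0 in 80 of 85 members and in each of the 74 members other than second copies, against 51.1% of all genes tested. Since the members vary together, these are not 74 separate results. Their median deviation was 0.23 and 0.21 in replicates A and B of F2-M18-G18 but -0.06 and -0.11 in C and D. In F2-M18-G25 it was -0.09, -0.08, -0.29 and -0.05. Under scaling to equal library totals it was above 0 in 78 of 85. The median was 0.20 and the largest value 0.42, in RpS15Ab. The number of members past the limma adjusted p was 0, against 1.77% of all genes, and 8 members had an unadjusted p under 0.05, against 14.8% of all genes. In 2 members every F2-M18-G18 library lay above every F2-M18-G25 library, which held for 6.28% of all genes. RpS3, a small subunit protein at the entry of the messenger RNA, had 2324, 2261, 1827 and 1718 in F2-M18-G18, against 1844, 1798, 1537 and 1864 in F2-M18-G25, a log2 fold change of 0.20 (SE 0.13, limma, adjusted p = 0.489). Its groups overlapped, and replicates A and B of F2-M18-G18 were the high ones.

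No member differed between both germline comparisons by the test of the difference, with 0 members past the limma adjusted p and 5 at an unadjusted p under 0.05, against 0.00884% and 8.72% of all genes. RpL38 came nearest, at -0.90 (SE 0.24, adjusted p = 0.333). Levels of muscle and larval fat body markers also differed in these comparisons. The muscle sum was 363700 to 375300 in F2-M25-G18 against 270500 to 277100 in F2-M25-G25, and 257000 to 353800 in F2-M18-G18 against 268500 to 309700 in F2-M18-G25. The larval fat body sum was 68150 to 85360 in F2-M25-G18 against 12700 to 12740 in F2-M25-G25, and 95800 to 114300 in F2-M18-G18 against 8994 to 99950 in F2-M18-G25. Their part in the results was not tested.

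The source of the microbiome was compared within each germline, and 1 member passed. RpL38 was lower in F2-M18-G18, with 362, 407, 358 and 339, than in F2-M25-G18, with 568, 615 and 849, and the groups did not overlap. The log2 fold change was -0.86 (SE 0.16, limma, adjusted p = 0.0155). The 1 member called is 1.18% of 85, against 0.681% of all genes tested and 0.371% lower. In 3 members every F2-M18-G18 library lay above every F2-M25-G18 library and in 6 below, against 8.33% and 8.16% of all genes. The call was lost without replicate D of F2-M18-G18 (-0.83, adjusted p = 0.0533) or without replicate D of F2-M25-G18 (-0.69, adjusted p = 0.168). It was also lost with the crossed groups exchanged, where F2-M18-G18 is set against the other crossed group. The muscle sum was 257000 to 353800 in F2-M18-G18 against 363700 to 375300 in F2-M25-G18, and its part in the result was not tested. The median of the members was -0.03, with 35 of 85 above 0 against 50.4% of all genes, and 0.04 with values scaled to equal library totals.

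RpL38 thus stood out in the library group named F2-M25-G18, since its mean was 677 ± 151 there (SD, n = 3) and between 343.5 and 440.5 in each of the 5 other groups. This group is a crossed one, and by the sample titles its libraries would be F2-M18-G25. The replicate letters in the read summary of the study go with the name used here. Under the exchange of both crossed groups the 8 members called for the germline with the M25 microbiome were called for the microbiome with the G25 germline, with the same values. As the libraries are named, F2-M18-G25 against F2-M25-G25 gave 0 members past the limma adjusted p, against 0.0619% of all genes, and 6 at an unadjusted p under 0.05, against 9.32%. In 10 members every F2-M18-G25 library lay above every usable value of F2-M25-G25 and in 16 below, against 9.01% and 9.38% of all genes. Here too, a larger share of the members than of all genes had only 2 values in F2-M25-G25. The median was 0.03, with 47 of 85 above 0 against 48.2% of all genes, and -0.02 under scaling to equal totals. RpL28 was at 0.38 (SE 0.12, limma, adjusted p = 0.332), with 1198, 1068, 947 and 1118 in F2-M18-G25 against 776 and 883 in F2-M25-G25, without overlap. The comparisons of F2 groups share F2-M18-G18 or F2-M25-G25 libraries and are not independent of each other.

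**Figure D5:**
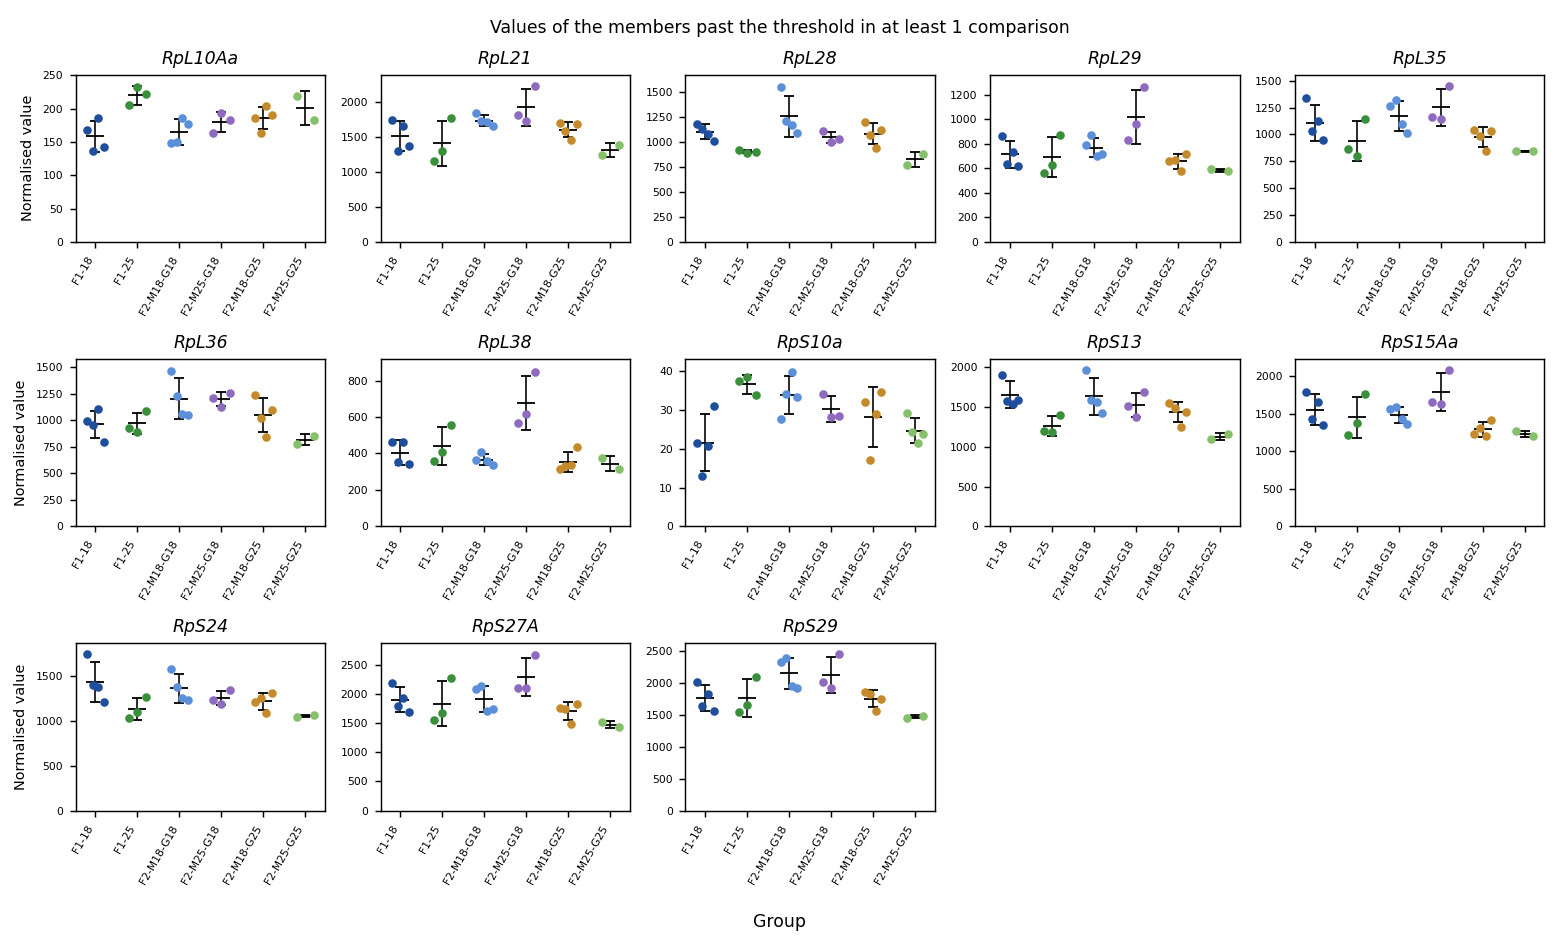
Normalised values (vertical axes, starting at 0) of the 13 members past the threshold in at least 1 pairwise comparison, by group, with a point for each library and the mean and SD in black. RpL38 is high in the 3 libraries of F2-M25-G18, with 568 to 849, and RpL28 has 776 and 883 in the usable libraries of F2-M25-G25.

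Taken by role, the remaining named members gave no call with the values as deposited. The stalk of the large subunit, to which elongation factors dock, is made of RpLP0 and of RpLP1 and RpLP2. RpLP0 averaged 2136 ± 390.3 in F1-18 and 2202 ± 211 in F1-25 (SD, n = 4 and 3), a log2 fold change of -0.06 (limma, adjusted p = 0.79). RpLP1 was at 0.10 in F1 (adjusted p = 0.669) and RpLP2 at 0.18 (adjusted p = 0.51). The largest value of the stalk genes over the 6 comparisons was 0.44, for RpLP1 in F2-M25-G18 against F2-M25-G25 (SE 0.17, limma, adjusted p = 0.121).

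RpS6, the small subunit protein phosphorylated by S6 kinase, had 2884, 2302, 2274 and 1944 in F1-18, against 2119, 2083 and 2396 in F1-25, a log2 fold change of 0.08 (SE 0.12, limma, adjusted p = 0.652). Its groups overlapped, and F1-18 replicates A and D were the highest and the lowest of them. RpL5 and RpL11 carry the 5S ribosomal RNA into the large subunit. RpL5 was at -0.24 in F1 (limma, adjusted p = 0.199) and at -0.33 in F2-M18-G18 against F2-M25-G18 (adjusted p = 0.237), where its groups did not overlap. With values scaled to equal library totals RpL5 was called lower in F1-18 (-0.39, limma, adjusted p = 0.0144). RpL11 was at -0.01 in F1 (adjusted p = 0.98). RpL32, chosen after its values were seen because it is a common reference gene for fly qPCR, ranged from 872 to 1670 over the 20 libraries, and its log2 fold changes lay between 0.00 and 0.32, with adjusted p of 0.255 or more.

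Among the 74 members other than second copies, those called included some that departed most from the shared movement and some that followed it closely. RpL28 had the lowest correlation with the median of the others (0.505), followed by RpL23A (0.697), RpL13 (0.721), RpS13 (0.736), RpL36 (0.742) and RpL38 (0.753), a list chosen after the values were seen. Of these, RpL23A and RpL13 were not called with the values as deposited. The called members outside this list were RpL21 (0.791), RpL29 (0.884), RpS15Aa (0.900), RpS24 (0.924), RpS27A (0.929), RpS29 (0.934) and RpL35 (0.945). With every library centred on the median of the members, a setting added after seeing the data, RpL10Aa was still lower in F1-18 (-0.55, limma, adjusted p = 0.046). Likewise RpL38 was still lower in F2-M18-G18 than in F2-M25-G18 (-0.84, adjusted p = 0.00362). In F2-M25-G18 against F2-M25-G25, RpL38 (0.72, limma, adjusted p = 0.0332) and RpL29 (0.53, adjusted p = 0.0476) were still higher, and RpS5b was lower (-0.88, adjusted p = 0.0403). This setting also left out the C and D libraries of F2-M25-G25 for all genes. For RpS5b that removed 27.6 and 44.1 and kept 53.0 and 41.2. With the values as deposited RpS5b was not called in this comparison. RpS13, RpS24, RpS29, RpL28 and the others called were not past the threshold relative to the other members.

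The members were also split by exon length and by chromosome. The median log2 fold change in F2-M25-G18 against F2-M25-G25 was 0.25 in the 43 shorter members and 0.23 in the 42 longer ones, and 0.25 in the 13 members on the X chromosome against 0.23 in the 72 others, with 3 of 13 and 5 of 72 called. In F1 it was 0.10 in the shorter and 0.07 in the longer members. The members lay on chromosomes 2L (17 genes), 2R (19), 3L (13), 3R (22), 4 (1) and X (13).

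Other genes of the translation machinery were counted by the same test. Of 70 mitochondrial ribosomal protein genes 8 were higher and 0 lower in F1-18, against 11% and 12.6% of all genes, with a median log2 fold change of 0.135. In F2-M25-G18 against F2-M25-G25 8 of the 70 were higher and 0 lower, against 4.35% of all genes higher, with a median of 0.281. In F2-M18-G18 against F2-M25-G18 2 were lower, against 0.371% of all genes, with a median of -0.253 and 7 of 70 above 0. Of 43 translation initiation factors 1 was higher and 10 were lower in F1-18, against the same 11% and 12.6% of all genes, with a median of -0.111. In F2-M25-G18 against F2-M25-G25 4 of them were higher and 1 lower, against 7.06% of all genes called, and 1 was higher in F2-M18-G18 than in F2-M25-G25. The lower ones in F1-18 included eIF3d2 (-0.783, limma, adjusted p = 5.65e-06), eIF3g2 (-0.862, adjusted p = 3.26e-04) and eIF4E3 (-0.667, adjusted p = 2.75e-04), which are additional forms of initiation factor proteins and were picked for their size of change. Of 5 elongation factors 2 were higher in F2-M25-G18 than in F2-M25-G25, against the same 4.35% of all genes, eEF1delta (0.797, adjusted p = 0.00924) and eEF1alpha2 (0.521, adjusted p = 0.0251).

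Set against the same 11% of all genes higher and 12.6% lower, of 20 ribosome biogenesis factors 1 was higher and 1 lower in F1-18. In each of the 5 F2 comparisons 0 passed, against 0.0619% to 7.06% of all genes. Of 7 RNA polymerase I genes, whose enzyme makes the ribosomal RNA precursor, 2 were lower in F1-18, Tif-IA (-0.345, limma, adjusted p = 0.0198) and Polr1E (-0.563, adjusted p = 0.0234). Of 11 genes in the control of growth and ribosome synthesis, S6k (0.286, adjusted p = 0.0295) and REPTOR (0.419, adjusted p = 0.0495) were higher in F1-18. Xrp1, which acts in cells short of ribosomal proteins, was higher in F2-M18-G18 than in F2-M25-G25 (0.505, adjusted p = 0.013), as were 2.23% of all genes. The 3 factors known from ribosomal protein promoters gave no call in the 6 pairwise comparisons, against 0.0619% to 23.5% of all genes.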

How the data were processed

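RNA depleted of ribosomal RNA from whole males was sequenced, and 22 of 24 samples had values. Per the labels and the methods of the study, the authors trimmed reads with Trimmomatic 0.32, aligned them with STAR 2.4.0f1, counted them per gene with HTSeq 0.6.1 and normalised the counts by TMM in edgeR. The deposited signal is thus a normalised value and not a count, so no count test was run. The files do not give the depth per library, and the aligned reads listed by the study were not used here. For F2-M25-G25, the values of libraries C and D that were calculated from A and B (7150 genes, tolerance 0.001) were set missing. The filter kept 11314 genes that reached 10 in 3 or more libraries.

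log2(value + 2) was fitted with limma 3.58.1 (R 4.3.3), with a mean for each of the 6 groups and a mean-variance trend. Tests were two-sided, and p-values were adjusted by Benjamini-Hochberg over all genes tested, with a threshold of 0.05. Fold changes are on the log2(value + 2) scale, which understates changes of low genes. The procedure was tested on simulated data. Symbols, coordinates and exon lengths came from Ensembl 115 (Release 6). Tables and plots were made in Python 3.11.15 with numpy 2.4.6, pandas 2.3.3 and matplotlib 3.10.9. Alternatives were another scaling (median of ratios or equal library totals), filter, pseudocount (0.5) or prior, a replicate block, the calculated values kept or both libraries left out, the 2 groups alone, the crossed groups exchanged, and each library left out in turn. Centring on the median of the members, with the C and D libraries of F2-M25-G25 left out for all genes, was added after seeing the data.

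The genes named are both genes of each pair with 1 protein name, the stalk proteins, RpS6, RpL40, RpS27A, RpS3, RpL5, RpL11, the members with the largest changes past the threshold in each comparison (up to 5 in each direction) and the 3 highest and 3 lowest per kb. Of these, 1 gene is not reported here. Others were chosen after their values were seen. The members, gene lists and tests were chosen with earlier results of these data known. Crossed F2 groups follow the sample names, 1 sample with conflicting labels was left unassigned, and 1 F1-25 sample was not analysed here.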

Additional observations from a re-analysis of the deposited data

Results flagged for a closer look

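In 134 groups of 4 libraries, 5 held a library whose gap to its nearest neighbour took up an unusually large part of the range of the group. Chance gives such a gap in about 1 of 20 groups. RpS13 was at 1902 in F1-18 replicate A, against 1535 to 1593 in the 3 other libraries. RpS15Ab was at 118.5 in the same library, and the lowest of the others was 96.32. RpS19b was at 76.24 in F1-18 replicate B, against 47.89 to 50.72. RpL24-like was at 215 in F2-M18-G18 replicate A, against 168.4 to 174.9. RpL37-2 was at 8.66 in F2-M18-G25 replicate B, against 12.06 to 12.76. Members outside the groups checked also had such gaps, in F2-M18-G25 replicate C. There RpS2 was at 878.5 against 1126 to 1165, and RpS7 at 1992 against 2359 to 2415. RpL9 was at 1226 against 1454 to 1486, and RpL14 at 1100 against 1309 to 1341. These genes were picked after their values were seen. The effect of RpS10a differed between generations by the test of the difference, with the F1 effect minus the F2 effect at -1.18 (limma, adjusted p = 0.0304).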

How the results depend on the processing

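Counts of members called moved most in comparisons with F2-M25-G25. With the calculated values kept, 15 members were called in F2-M18-G18 versus F2-M25-G25, 19 in F2-M25-G18 versus F2-M25-G25, 1 in F2-M18-G25 versus F2-M25-G25 and 3 in the difference between the F1 and F2 effects. With both libraries left out for all genes, or with a minimum of 50, 0 were called in that difference. With only the 2 groups fitted the counts were 1 in F1, 13 in F2-M18-G18 versus F2-M25-G25 and 21 in F2-M25-G18 versus F2-M25-G25. Without a trend in the prior they were 1 and 3 in these F2 comparisons. Scaled to equal totals, 5 were called in F2-M25-G18 versus F2-M25-G25 (median 0.05) and 2 in the difference between generations. Over all genes that scaling gave 574 higher and 2366 lower in F1 (1240 and 1420 as deposited), 179 and 248 in F2-M18-G18 versus F2-M25-G25 (252 and 77), and 323 and 1574 in F2-M25-G18 versus F2-M25-G25 (492 and 307). Centred on the members, 1 was called in F1, 0 in F2-M18-G18 versus F2-M25-G25, 3 in F2-M25-G18 versus F2-M25-G25 and 0 in the difference between generations. Beyond the construction of each setting, the cause was not tested. Except for the scaling to equal totals, the calls over all genes in each setting are not set beside these counts. The counts thus do not show a change particular to the members. The same holds for the counts with a library left out or with a replicate block.

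With the crossed groups exchanged, F2-M18-G18 versus F2-M18-G25 gave 1 call (median -0.03), F2-M25-G18 versus F2-M25-G25 gave 0 (median 0.03), F2-M18-G18 versus F2-M25-G18 gave 0 (median 0.20) and F2-M18-G25 versus F2-M25-G25 gave 8 (median 0.23). RpL38 in F2-M18-G18 versus F2-M25-G18 then changed sign, to 0.06 (limma, adjusted p = 0.894). Leaving out 1 library at a time gave 1 to 8 calls in F1 (median -0.01 to 0.21), 0 to 4 in F2-M18-G18 versus F2-M25-G25 (0.15 to 0.27), 0 to 10 in F2-M25-G18 versus F2-M25-G25 (0.18 to 0.27), 0 to 1 in F2-M18-G18 versus F2-M25-G18 (-0.08 to 0.04) and 0 to 1 in the difference between generations. The replicate letters were not taken to pair the samples, since in 0 of 3 comparisons with 3 or more same-letter pairs did every pair correlate above 0.1 (-0.361 to 0.208 in F1, 0.0415 to 0.176 in F2-M18-G18 versus F2-M18-G25, -0.124 to -0.0172 in F2-M18-G18 versus F2-M25-G18). With a replicate block 6 members were called in F1 (4 higher, 2 lower), 3 in F2-M18-G18 versus F2-M25-G25, 3 in F2-M25-G18 versus F2-M25-G25, 1 in F2-M18-G18 versus F2-M25-G18 and 0 in the other 2 pairwise comparisons.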
